A study of Mus musculus with 51 samples.

Results

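Zeb1, Zeb2, Snai1, Twist1, Twist2 and Prrx1 are 6 transcription factor genes of mesenchymal cells, and they were followed through the reprogramming of mouse fibroblasts. They were taken by name, as 6 of the 16593 genes with a named probe on a bead array. Of 25697 probes, 11 were annotated to them, and where a gene had several, the brightest on average across the 51 arrays was used. Differences between groups played no part in the choice of probe. The 6 genes, and the lists of related genes used below, were chosen with earlier results of these data known. Their counts are therefore a description and no independent test. Each level is a normalized log2 intensity, so a difference of 1 is 2-fold, and levels of different genes are not comparable because probes differ in brightness. A gene was called when its limma p-value, adjusted over all genes tested, was under 0.05.

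All cells carried the strain label rtTA Mouse. The fibroblast group held 2 arrays, primary parental fibroblasts of the E15.5 embryo (replicate 1) and day 0 of a secondary course (replicate 2). Fibroblasts had been given c-Myc, Oct4, Sox2 and Klf4, and clonal lines were kept on doxycycline so that the transgenes stayed on. At day 16 of primary reprogramming, 6 clonal lines were labelled F-class (clones 1, 2, 6, 7, 13 and 27) and 22 C-class, and clone 1 was measured again at day 30. The secondary course had 1 array each on days 2, 5, 8, 11, 16 and 18. Further groups of 2 arrays were doxycycline-independent iPSC (replicate 1 from secondary, replicate 2 from primary reprogramming) and ESC. Each of 2 Tet-Myc lines was measured with doxycycline and 48 h without it. F-class cells, whose clone the labels do not name, were measured at 0, 24 and 48 h of an unnamed histone deacetylase inhibitor (HDACi), with 2 arrays a time. How clones were sorted into classes is not stated, and the class may itself rest on expression. The arrays of a clone class are different clones, those of a Tet-Myc group are different lines, and the fibroblast and iPSC arrays differ in origin. For ESC and HDACi it is not stated that the arrays of a group were separate cultures. The p-values measure the spread among arrays, which in ESC and HDACi may be a technical one.

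Cells of a mesenchyme, such as fibroblasts, are held in that state by a small set of transcription factors that keep the genes of epithelial junctions off. Zeb1 and Zeb2 are zinc-finger and homeodomain repressors, Snai1 is a zinc-finger repressor, and all bind short E-box motifs, including those of the E-cadherin gene Cdh1. Twist1 and Twist2 are basic helix-loop-helix factors of embryonic mesenchyme, and Prrx1 is a paired-related homeobox factor of limb and craniofacial mesenchyme. Reprogramming of fibroblasts begins with the reverse passage, from mesenchyme to epithelium, in which these factors go down and Cdh1 comes on.

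The 250 bases before the start of 3 of the genes are shown, Snai1 because it held the E-box variant of Snai and Zeb factors, and Twist2 with Prrx1 because their levels moved most closely together among the C-class clones. All are from RefSeq on GRCm38.p6, 5′ to 3′ on the gene's strand, and capitals mark CACCTG, searched on both strands.
Snai1, chr2:167537945-167538194, plus strand: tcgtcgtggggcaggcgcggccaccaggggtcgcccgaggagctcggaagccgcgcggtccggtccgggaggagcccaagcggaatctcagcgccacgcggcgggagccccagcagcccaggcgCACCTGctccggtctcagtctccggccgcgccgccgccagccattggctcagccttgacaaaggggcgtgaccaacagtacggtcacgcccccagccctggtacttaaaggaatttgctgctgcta
Twist2, chr1:91801211-91801460, plus strand: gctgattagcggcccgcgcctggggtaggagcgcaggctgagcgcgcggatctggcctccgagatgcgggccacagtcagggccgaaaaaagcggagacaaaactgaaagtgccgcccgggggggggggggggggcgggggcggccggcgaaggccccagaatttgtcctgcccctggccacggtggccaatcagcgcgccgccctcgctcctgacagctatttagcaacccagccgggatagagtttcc
Prrx1, chr1:163313651-163313900, minus strand: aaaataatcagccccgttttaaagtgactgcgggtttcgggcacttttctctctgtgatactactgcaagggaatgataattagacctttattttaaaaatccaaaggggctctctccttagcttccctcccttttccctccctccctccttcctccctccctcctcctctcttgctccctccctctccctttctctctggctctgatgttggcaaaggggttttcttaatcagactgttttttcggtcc
The 1 match in the Snai1 window began 126 bases before the start. No match was found in the windows of Twist2, Prrx1, Twist1 or Zeb2, which says only that these letters are not there. Zeb1 was not searched. Of 32851 windows of this length in the table, 17.2% held the motif.

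Between 46.6% and 53.4% of probes were detected on an array, and replicates of a group correlated over genes at 0.9567 to 0.9953. The fibroblast arrays had 7 of 7 measured fibroblast markers and few pluripotent ones, and the iPSC and ESC arrays had 8 of 8 pluripotent markers, as their labels say. The iPSC arrays also had all 7 fibroblast markers, with a summed intensity of 17997 and 24260 against 70506 and 116386 in fibroblasts. ESC replicate 1 had all 7 (19018) and replicate 2 had 5 (5495). Macrophage and endothelial markers, at 17451 in ESC replicate 1 and 1018 in replicate 2, set these arrays apart too. Whether fibroblasts or other cells were present in those cultures is not stated. On such bulk RNA, fewer cells of a type and less RNA per cell cannot be told apart. The deposited values came in 2 number formats. One held the primary fibroblasts, all clones and ESC replicate 1, and the other held every other array.

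**Figure D1:**
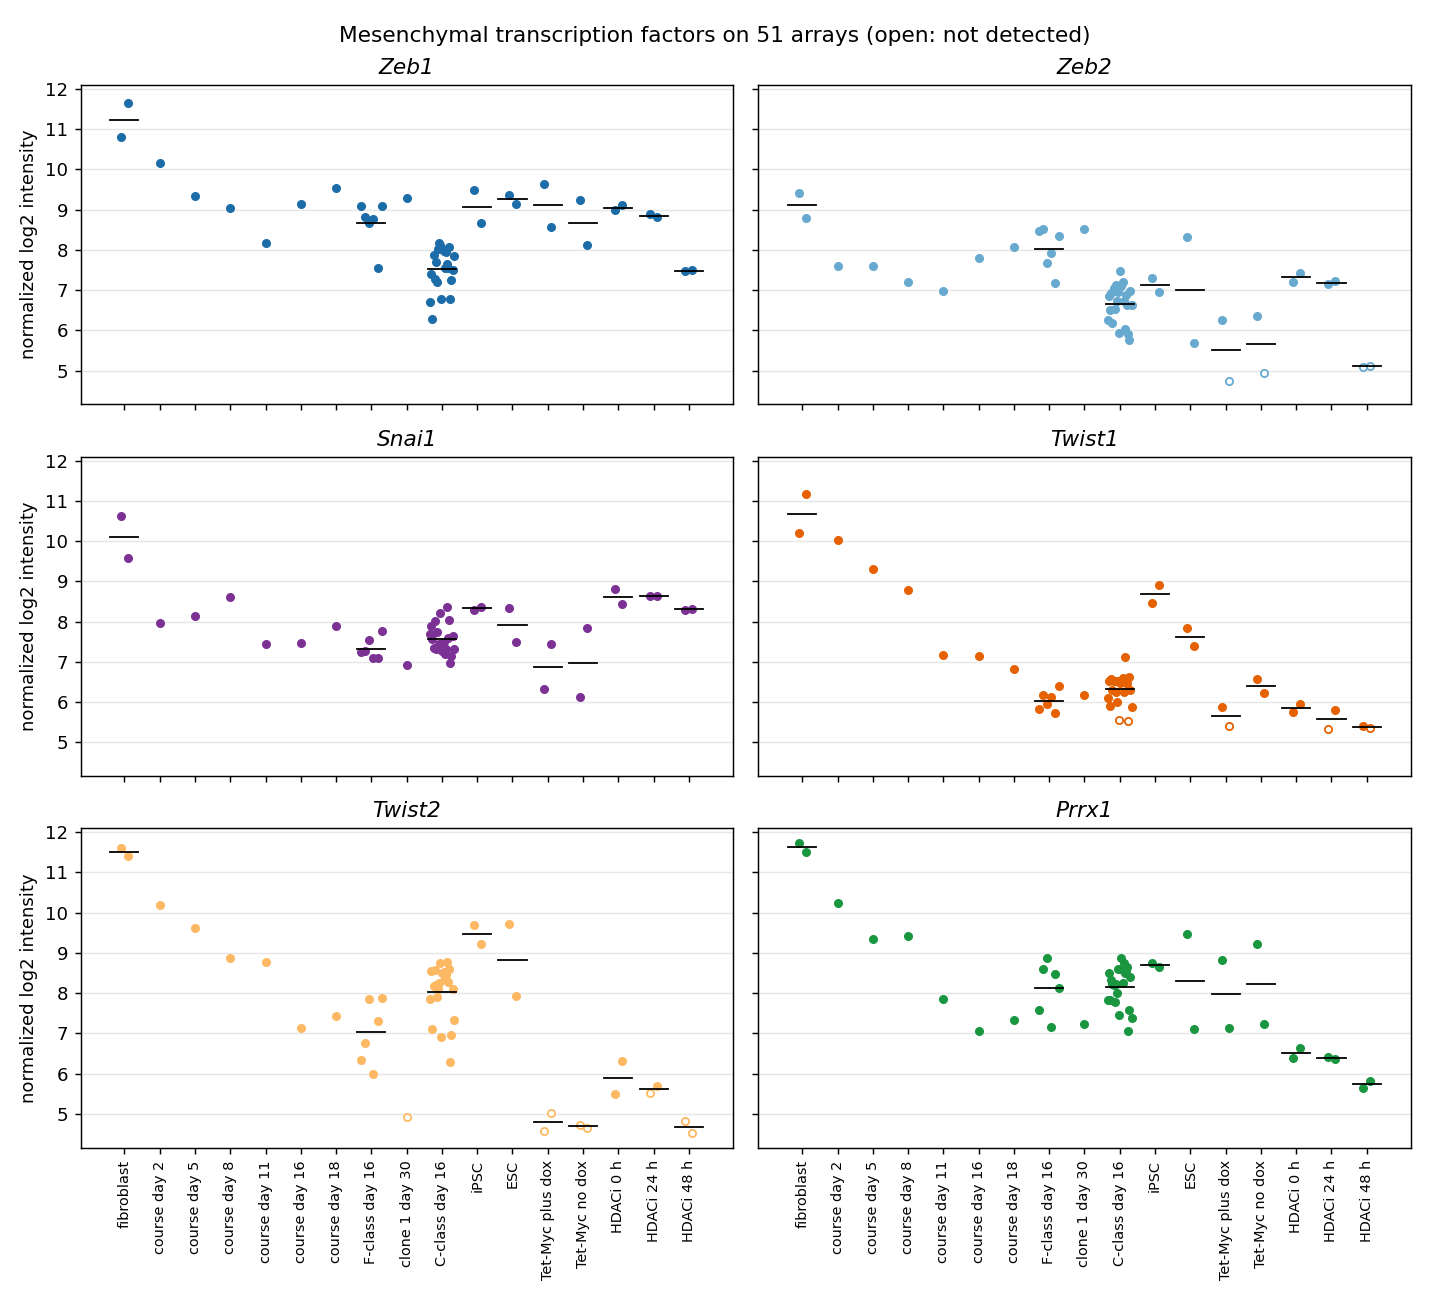
Normalized log2 intensity of the 6 genes on 51 arrays in 17 groups. Points are arrays, open points were not detected, and black lines are means of groups with more than 1 array. The fibroblast arrays are the highest group in every panel, Zeb1 and Zeb2 stand higher in the F-class, and Twist2 is undetected in the Tet-Myc lines.

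All 6 factors were lower in reprogramming clones than in the fibroblast group, of which only the primary array is labelled parental. In F-class clones 6 of 6 were lower than in fibroblasts (27.2% of all genes tested were), and the same held in C-class clones (28.5%). Among the 6, Twist1 had the largest difference in both classes and Zeb2 the smallest. The median of the 6 changes was -3.13 (F-class) and -3.47 (C-class) on the log2 scale, against 0.10 and 0.09 over all genes. The fibroblast markers fell with them, to summed intensities of 1353 to 3052 (F-class) and 1492 to 6574 (C-class).

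Twist1, which patterns cranial and limb mesenchyme, stood at 10.20 and 11.17 in the fibroblast arrays. Its lowest, median and highest levels were 5.73, 6.04 and 6.40 in F-class clones and 5.53, 6.47 and 7.12 in C-class clones, where 20 of 22 arrays detected it. The groups did not overlap. Twist1 was 25.2-fold lower in F-class (log2 fold change -4.66, adjusted p = 9.9e-15) and 20.6-fold lower in C-class clones (adjusted p = 2.9e-15).

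Its paralog Twist2 had 11.62 and 11.40 in fibroblasts. In F-class clones it ran from 6.00 over a median of 7.03 to 7.88, and in C-class clones from 6.30 over 8.23 to 8.78. Every clone lay below both fibroblast arrays, by 22.4-fold (adjusted p = 2.7e-08) and 11.2-fold (adjusted p = 4.0e-07) on average. Prrx1 had 11.74 and 11.51 in fibroblasts, 7.16 to 8.87 with a median of 8.30 in F-class clones, and 7.05 to 8.87 with a median of 8.24 in C-class clones. The clone classes overlapped from end to end, both far below fibroblasts, at 11.2-fold (adjusted p = 9.5e-08) and 11.0-fold (adjusted p = 1.4e-08). All 4 Prrx1 probes, which match 2 RefSeq transcripts, were called lower in both classes, 3 of them with log2 fold changes between -3.31 and -3.82 and the dim other one, detected on 3 of 51 arrays, with -1.55.

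Snai1, a repressor that acts at the start of epithelial to mesenchymal transition, stood at 10.62 and 9.59 in fibroblasts. It ran from 7.08 over 7.25 to 7.76 in F-class clones and from 6.96 over 7.46 to 8.37 in C-class clones. No clone reached a fibroblast array. The fall was 6.84-fold (adjusted p = 1.5e-09) and 5.84-fold (adjusted p = 9.6e-10).

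Zeb1 had 10.80 and 11.64 in fibroblasts. It ran from 7.56 over 8.79 to 9.09 in F-class clones and from 6.29 over 7.61 to 8.17 in C-class clones. Both classes lay below fibroblasts without overlap, F-class by 5.87-fold (adjusted p = 3.6e-06) and C-class by 12.9-fold (adjusted p = 5.0e-10). Zeb2 had 9.41 and 8.80 in fibroblasts, 7.17 over 8.13 to 8.53 in F-class clones, and 5.77 over 6.73 to 7.47 in C-class clones. Its highest F-class clone lay just below the lower fibroblast array, so the gap was narrow. The fall was 5.46-fold in C-class clones (adjusted p = 5.7e-06) and 2.12-fold among the F-class (a log2 change of -1.08 with SE 0.46 and adjusted p = 0.042). The F-class call ended without clone 6 (-1.01), clone 7 (-1.06) or clone 13 (-0.91), without the primary (-0.78) or the day 0 fibroblast array (-1.39), and with no filter on detection (-1.08).

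**Figure D2:**
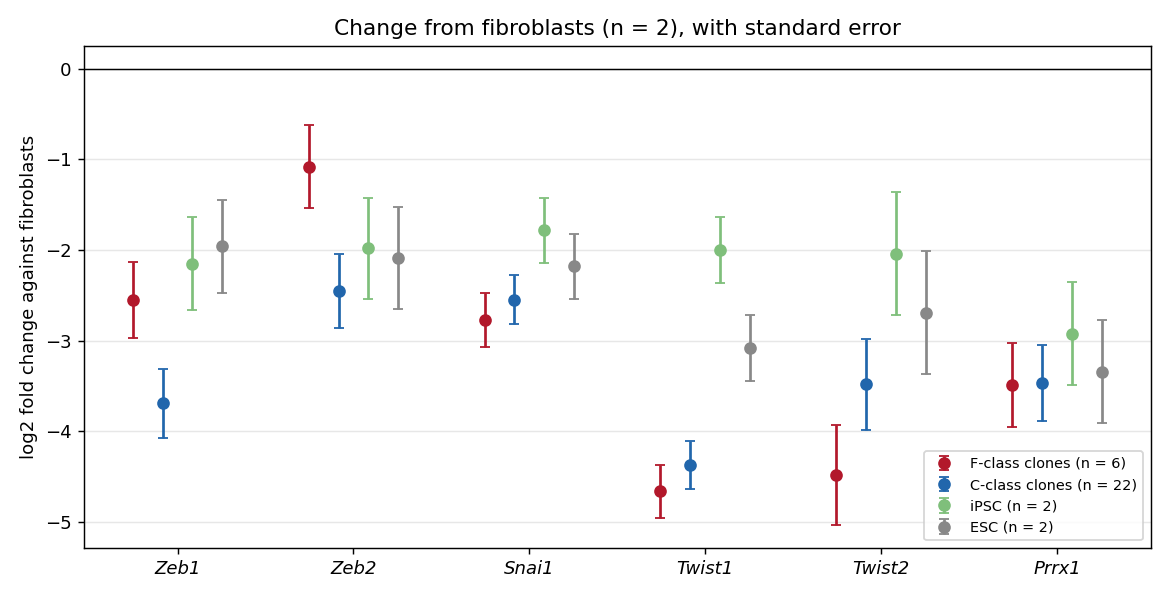
Log2 fold change of each gene against fibroblasts (n = 2), with its standard error, for F-class clones (n = 6), C-class clones (n = 22), iPSC (n = 2) and ESC (n = 2). All 24 values lie below 0. The value nearest to it is that of Zeb2 in F-class clones (-1.08), and the lowest is that of Twist1 in F-class clones (-4.66).

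The pathway around the 6 factors moved as well. Of 20 mesenchymal target genes tested, 20 were lower than in fibroblasts among F-class clones and 19 among C-class clones, and 0 were higher (medians -3.68 and -3.21). The collagens Col1a1 and Col3a1 fell 102-fold and 52.0-fold in the F-class, the matrix protease Mmp2 was 52.4-fold lower and the growth factor receptor Pdgfrb at least 34.1-fold lower. Among 9 other transcription factors of this transition, 6 were lower and 1 higher in each class. Msx1 was 26.4-fold lower among F-class and 12.6-fold lower among C-class clones, and Snai3 was 7.51-fold higher among the latter. Of 16 genes of TGF-beta and BMP signalling, 9 were lower and 1 higher in F-class and 11 lower and 2 higher in C-class clones. Tgfbi, a matrix protein induced by TGF-beta, was 197-fold and 148-fold lower, the ligand Tgfb3 60.2-fold and 41.1-fold lower and the receptor Tgfbr2 26.7-fold and 10.8-fold lower. Epithelial target genes went the other way. In F-class clones 8 of 16 were higher and 1 lower (31.5% of all genes were higher), and in C-class clones 15 were higher and 1 lower (31.6%). Cdh3 was the one lower in F-class clones, by 28.2-fold.

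The comparison of the clone classes asked whether these factors separate F-class from C-class cells. Both Zeb genes were higher in F-class clones and Twist2 was lower, while Snai1, Twist1 and Prrx1 were not called. Thus 2 of 6 were higher (14.1% of genes were) and 1 of 6 lower (10.6%). Zeb2 was 2.58-fold higher (log2 fold change 1.37, SE 0.26, adjusted p = 2.1e-04) and Zeb1 2.20-fold higher (1.14, SE 0.24, adjusted p = 6.0e-04). Twist2 was 2.00-fold lower (-1.0, SE 0.31, adjusted p = 0.018), and this was no longer called once clone 1 (-0.87) or clone 7 (-0.80) was left out. The intervals of the other differences were -0.55 to 0.51 for Prrx1, -0.57 to 0.11 for Snai1 and -0.62 to 0.05 for Twist1, so a change of 2-fold lay outside each. All arrays of both classes shared 1 number format.

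Clone by clone, Zeb1 stood at 9.09, 8.81, 8.68, 8.76, 7.56 and 9.09 in clones 1, 2, 6, 7, 13 and 27. Zeb2 stood at 8.48, 8.53, 7.67, 7.93, 7.17 and 8.34 in the same order. For each gene 5 of 6 F-class clones lay above all 22 C-class clones. Clone 13 was the exception, with 11 C-class clones above it for Zeb1 and 2 for Zeb2. How many other genes part the classes this far was not counted, so the separation is not shown to be particular to the Zeb genes. Cdh1, which the Zeb factors repress, stood at 8.04, 8.36, 10.05, 9.40, 10.98 and 9.63 in those clones, so clone 13 had the lowest Zeb levels and the highest Cdh1, while clones 1 and 2 had the lowest Cdh1. The summed fibroblast markers of clone 13 (2228) lay within the F-class range. Twist2 ordered the clones differently, at 6.34, 6.77, 7.86, 6.00, 7.30 and 7.88. Only clone 7 lay below every C-class clone for Twist2.

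Cdh1 was 3.80-fold lower in the F-class (log2 fold change -1.93, adjusted p = 4.6e-07). Among the 16 epithelial targets 14 were lower and 0 higher (median -1.59, against 0.03 over all genes). The small GTPase Rab25 was 11.2-fold lower, the splicing factor Esrp1, whose loss goes with mesenchymal transcripts, 6.16-fold lower, the tight-junction claudin Cldn4 6.06-fold lower and the keratin Krt8 5.20-fold lower. Grhl2 and Ovol1, epithelial factors known to oppose Zeb1, were 4.78-fold and 2.55-fold lower, and Tcf4, an E-protein partner of Twist factors, was 2.09-fold higher. Mesenchymal targets did not rise as a group. Of 20 tested, 2 were higher and 6 lower, among them the protease Mmp3 (2.79-fold lower) and S100a4 (2.46-fold lower). Signalling genes split evenly, with 5 higher and 5 lower of 16, and Bmp4 and Tgfbr2 were 3.04-fold and 2.48-fold lower.

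The comparison with pluripotent lines asked how the clones stand against the end point of reprogramming. Both iPSC and ESC had 6 of 6 lower than fibroblasts (22.5% and 23.8% of genes were lower), by 3.43-fold to 7.56-fold in iPSC and 3.90-fold to 10.1-fold in ESC. In iPSC the calls of Zeb2 and Twist2 ended without the primary fibroblast array (-1.67 and -1.93) and with number format as a term (-1.16 and -1.54), and that of Twist2 also without iPSC replicate 2 (-1.81). In ESC the calls of Zeb2 and Twist2 ended without ESC replicate 2 (-0.77 and -1.80), and that of Zeb2 also when only these 2 groups were fitted (-2.09).

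Both Twist factors were lower in the clones than in iPSC, and Twist1 was lower than in ESC as well. Twist1 had 8.45 and 8.92 in iPSC and 7.83 and 7.38 in ESC, above every F-class and C-class clone. It was 6.30-fold lower in F-class clones than in iPSC (adjusted p = 1.4e-08) and 2.98-fold lower than in ESC (adjusted p = 5.1e-05), and 5.17-fold (adjusted p = 1.5e-08) and 2.44-fold lower (adjusted p = 1.9e-04) in C-class clones. Twist2 had 9.70 and 9.23 in iPSC, above every clone, but 9.71 and 7.93 in ESC, where the second array lay among the C-class clones. It was 5.43-fold lower in F-class clones than in iPSC (adjusted p = 4.7e-04) and 3.46-fold lower than in ESC (adjusted p = 0.0083), the latter call ending without ESC replicate 1 (-0.90). Against C-class clones the iPSC were 2.71-fold higher (adjusted p = 0.017), a call that ended without iPSC replicate 1 (-1.20) or 2 (-1.67). Fibroblast markers were higher in the same lines, in iPSC on both arrays and in ESC mainly on replicate 1, and their part in these differences was not tested.

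Zeb1 stood at 9.48 and 8.67 in iPSC and 9.37 and 9.15 in ESC, all above every C-class clone. The iPSC array at 8.67 lay within the F-class range and the other arrays above it. C-class clones were 3.31-fold lower than ESC (adjusted p = 4.1e-04) and 2.92-fold lower than iPSC (adjusted p = 0.001), the latter call ending without iPSC replicate 1 (-1.14) and with number format as a term (-1.23). F-class clones were not called against either, at -0.59 and -0.41. Cdh1 stood at 11.19 and 11.09 in iPSC and 11.77 and 11.13 in ESC, above every F-class clone. Zeb2 had 7.29 and 6.96 in iPSC and 8.33 and 5.69 in ESC, where one array lay in the F-class range and the other below every C-class clone. F-class clones differed from ESC by 1.01 (adjusted p = 0.067), which passed without ESC replicate 1 (2.33) or clone 13 (1.18) and turned without ESC replicate 2 (-0.31). From iPSC they differed by 0.90 (adjusted p = 0.098), which passed without clone 13 (1.07) and under quantile normalization or with the authors' values (0.61 each), and turned to -0.73 with number format as a term. C-class clones differed from ESC by -0.36, which passed without ESC replicate 2 (-1.68) and with number format as a term (-1.17), and from iPSC by -0.47, which passed with that term (-2.10).

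Snai1 had 8.28 and 8.37 in iPSC and 8.33 and 7.50 in ESC. Both iPSC arrays lay above every F-class clone, which were 2.00-fold lower (adjusted p = 0.0056), and at the top of the C-class range, whose mean was 1.71-fold lower (adjusted p = 0.017). The F-class call ended without iPSC replicate 2 (-0.95), and the C-class call without iPSC replicate 1 (-0.82) or 2 (-0.73). Against ESC neither class was called, though F-class passed without ESC replicate 2 (-1.0) and with number format as a term (-1.05), and C-class with that term (-0.83). Prrx1 had 8.76 and 8.65 in iPSC and 9.46 and 7.12 in ESC. One ESC array lay above every clone and the other near the lowest clones, and no difference from a clone class was called. Without ESC replicate 2 both classes passed as lower (-1.32 and -1.30), F-class passed against iPSC with number format as a term (-1.85), and the other probe of the same Prrx1 transcript was called lower than iPSC in F-class (-1.17, adjusted p = 0.042) and C-class clones (-1.14, adjusted p = 0.029).

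In counts, 3 of 6 factors were lower in F-class clones than in iPSC (24.7% of genes were) and 2 of 6 than in ESC (22.5%). In C-class clones 4 of 6 were lower than in iPSC (25.6%) and 2 of 6 than in ESC (22.3%). Between iPSC and ESC 0 of 6 were called by limma (8.15% of genes in either direction), where 1 of the 6, Twist1, had an unadjusted p of 0.0048 (log2 fold change 1.08, SE 0.36, adjusted p = 0.055). Twist1 passed there under quantile normalization (0.80), with the authors' values (0.81) and at an offset of 50 (0.96). The other Snai1 probe, detected on 7 of 51 arrays, was called there as higher in iPSC (0.60, adjusted p = 0.027). In the order of levels among these 5 reference groups, fibroblasts stood first for every factor and differed from the next group, at adjusted p between 2.9e-05 and 0.042. The C-class clones stood last for both Zeb genes, and the F-class clones stood last for the other 4. Below the fibroblasts, neighbours in the order differed only between F-class and C-class clones for Zeb1 and Twist2 and between ESC and C-class clones for Twist1. All comparisons with fibroblasts, iPSC or ESC share those arrays.

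The secondary course showed when the factors went down. By day 2 all 6 were more than 2-fold below day 0, and they then parted. Twist1, Twist2 and Prrx1 reached their lowest levels at day 16 or 18, whereas Zeb1 and Zeb2 were lowest at day 11 and higher again at days 16 and 18. These are single arrays of 1 number format, with no replicate and no test.

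Zeb1 stood at 11.64 on day 0 and at 10.15, 9.35, 9.04, 8.18, 9.14 and 9.53 on days 2, 5, 8, 11, 16 and 18. Zeb2 stood at 8.80 and then at 7.61, 7.61, 7.21, 6.97, 7.80 and 8.06. Against day 0 the log2 differences at day 11 were -3.46 for Zeb1 and -1.83 for Zeb2, and at day 18 they were -2.11 and -0.73. Cdh1 was at 5.09 on day 0 and then at 7.82, 10.04, 10.58, 10.05, 9.53 and 8.15. Its peak at day 8 came before the lowest Zeb levels. From day 2 to day 5 Cdh1 rose, while Zeb1 went from 10.15 to 9.35 and Zeb2 stayed at 7.61. Whether Cdh1 depended on either gene was not tested. The summed epithelial markers were 221 at day 0, 71873 at day 5 and 3707 at day 18. The summed fibroblast markers were lower on the days when the Zeb genes were higher again, at 13245 on day 11, 6374 on day 16 and 6026 on day 18. The part of a changing cell mixture in the Zeb levels was not tested.

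Twist1 stood at 11.17 on day 0 and at 10.02, 9.31, 8.78, 7.16, 7.13 and 6.81 afterwards. Twist2 went from 11.40 to 10.18, 9.61, 8.88, 8.77, 7.14 and 7.43, and Prrx1 from 11.51 to 10.23, 9.35, 9.42, 7.86, 7.06 and 7.32. At day 18 the log2 differences of these 3 factors from day 0 were -4.36, -3.97 and -4.19, and their levels lay in the range of the C-class clones. Twist2 and Prrx1 lay in the F-class range as well, and Twist1 lay above it. On that day Zeb1 (9.53) was above every day 16 clone of both classes. Zeb2 (8.06) was above every C-class clone and within the F-class range. Snai1 fell at once, from 9.59 to 7.97 on day 2, stood at 8.13 and 8.62 on days 5 and 8, and was 7.45, 7.46 and 7.88 after that. Its day 8 difference from day 0 was -0.97, and day 8 was the only day on which it was within 2-fold. Past 2-fold lower were 6 of 6 factors on day 2 (14.6% of genes were), 6 on day 5 (15.8%), 5 on day 8 (15.1%), 6 on day 11 (17.9%), 5 on day 16 (18.0%) and 5 on day 18 (19.0%), with Zeb2 the one short of 2-fold on the last 2 days.

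**Figure D3:**
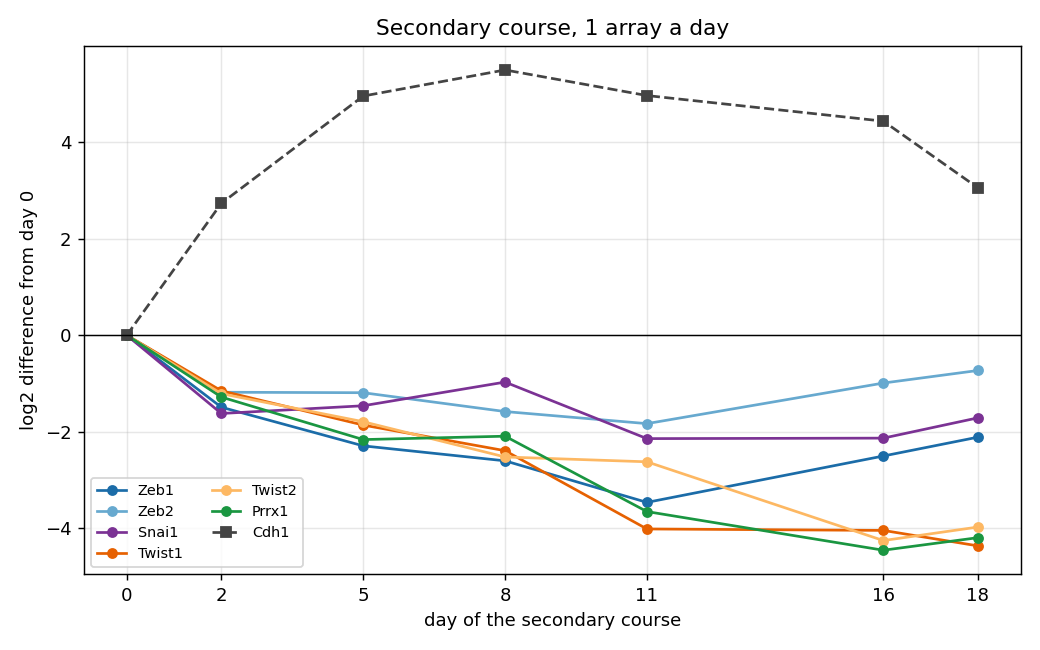
Log2 difference from day 0 of the 6 genes (circles) and Cdh1 (squares, dashed) on each day of the secondary course, 1 array a day. Zeb1 and Zeb2 turn upward after day 11, to -2.11 and -0.73 at day 18, while Twist1, Twist2 and Prrx1 end between -3.97 and -4.36 and Cdh1 falls from 5.49 at day 8 to 3.05.

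Prolonged culture of clone 1 changed little among these factors apart from Twist2. From day 16 to day 30, Zeb1 went from 9.09 to 9.29, Zeb2 from 8.48 to 8.53, Snai1 from 7.24 to 6.93, Twist1 from 5.82 to 6.17 and Prrx1 from 7.57 to 7.23. Twist2 went from 6.34 to 4.93, where it was no longer detected, so it was at least 1.52-fold lower. That bound is under 2-fold, so 0 of 6 factors were shown to differ by more than 2-fold. By measured values, undetected ones included, only Twist2 among the factors was lower by over 2-fold (-1.41), as were 2.24% of genes. Cdh1 was 8.04 and 7.83. With 1 array a day these differences have no replicate check.

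Inhibition of histone deacetylases asked whether F-class cells give up this programme. No untreated cells were measured at 24 or 48 h, so the inhibitor and the time in culture cannot be told apart. At 48 h both Zeb genes and Twist2 were lower, and at 24 h 0 of 6 factors had been called (2.09% of genes in either direction, and 0 of 6 at an unadjusted p under 0.05). Thus 3 of 6 were lower at 48 h than at 0 h (14.5% of genes were). Zeb2 stood at 7.21 and 7.43 at 0 h, 7.15 and 7.22 at 24 h, and 5.09 and 5.12 at 48 h, where neither array detected it. It was at least 3.62-fold lower at 48 h than at 0 h (log2 fold change -2.22, SE 0.55, adjusted p = 0.021) and at least 3.30-fold lower than at 24 h (-2.08, adjusted p = 0.040).

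Zeb1 stood at 8.98 and 9.12, then 8.89 and 8.81, then 7.47 and 7.49. Both arrays at 48 h lay far below the other 4, by 2.97-fold against 0 h (-1.57, SE 0.42, adjusted p = 0.028), and the difference of -1.37 from 24 h was not called (adjusted p = 0.063), though it passed when only the 2 groups were fitted (-1.37). Twist2 stood at 5.49 and 6.31, then 5.52 (not detected) and 5.69, then 4.81 and 4.52 (neither detected). It was at least 1.35-fold lower at 48 h than at 0 h (-1.24, SE 0.29, adjusted p = 0.016), while the difference of -0.94 from 24 h had adjusted p = 0.063. Against 24 h, Zeb2 alone was called, 1 of 6 (8.21% of genes were lower).

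Prrx1 stood at 6.38 and 6.63, then 6.42 and 6.36, then 5.65 and 5.82. The 48 h arrays lay below the others, but the difference of -0.77 was not called in a spread shared with the Tet-Myc lines (SE 0.69, adjusted p = 0.44). It passed when only the 2 groups were fitted (-0.77). The other 3 Prrx1 probes were not detected at 0 h. Twist1 stood at 5.75 and 5.95, then 5.33 (not detected) and 5.81, then 5.41 and 5.35 (not detected), near background throughout (-0.47 at 48 h, adjusted p = 0.19), and passed in the fit of the 2 groups alone (-0.47). Snai1 was not called, at 8.80 and 8.43, then 8.63 and 8.63, then 8.29 and 8.31, with a difference of -0.32 and an interval of -1.59 to 0.95.

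The HDACi tests used a spread shared with the Tet-Myc arrays, with no term for the line. With replicate number as a block, the 48 h differences from 0 h had SE 0.13 for Zeb1 (adjusted p = 8.9e-04) and 0.13 for Zeb2 (adjusted p = 7.2e-04). For Twist2 the SE was 0.28 (adjusted p = 0.018). HDACi arrays share only a number, so the block does not pair them. With 1 array left out and no block, which leaves a lone array in that group, the 48 h differences from 0 h kept their size. They ran from -1.50 to -1.64 for Zeb1 and from -2.11 to -2.32 for Zeb2, but neither was called without any one of the 4 arrays. For Twist2 they ran from -0.83 to -1.65, and of the 4 fits it was called only in that without replicate 1 at 0 h (-1.65). The Zeb2 difference from 24 h ran from -2.05 to -2.12 and was not called without any one of its 4 arrays. The test of the change over the second day against that over the first passed for 0 of 6 factors (Zeb2 -1.95, SE 0.95, adjusted p = 0.34, unadjusted p = 0.077, the smallest of the 6), against 298 genes called.

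Cdh1 rose over the same hours, from 9.37 and 8.94 to 10.31 and 10.47 and to 11.20 and 11.35. At 48 h it was 4.35-fold higher than at 0 h (log2 fold change 2.12, adjusted p = 0.0057). Of 16 epithelial targets 8 were higher and 0 lower (14.2% of all genes were higher; median 1.72, against 0.02 over all genes), with Cldn4 25.9-fold, the keratin Krt18 9.04-fold, Rab25 at least 5.47-fold and Cdh3 4.69-fold higher. Grhl2 was 5.34-fold and Ovol1 2.88-fold higher. Of 12 mesenchymal targets tested, 6 were lower and 1 higher, with the collagen cross-linking enzyme Lox 10.5-fold, the matrix protein Tnc 7.38-fold, Tagln 5.31-fold and Col1a1 4.58-fold lower. Among 6 other transcription factors of the transition, 5 were lower, including Foxc1 (5.97-fold) and Sox9 (at least 3.07-fold), and Snai3 was 8.58-fold higher. Signalling genes had 6 lower and 2 higher of 15. Inhba, an activin subunit, was 10.2-fold lower, and Bmp4 was 10.9-fold higher. Summed pluripotent markers were 14766 and 27498 at 0 h and 81173 and 82859 at 48 h, and fibroblast markers 1830 and 2269 at 0 h and 1129 and 1181 at 48 h. Their part in the factors' change was not tested.

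**Figure D4:**
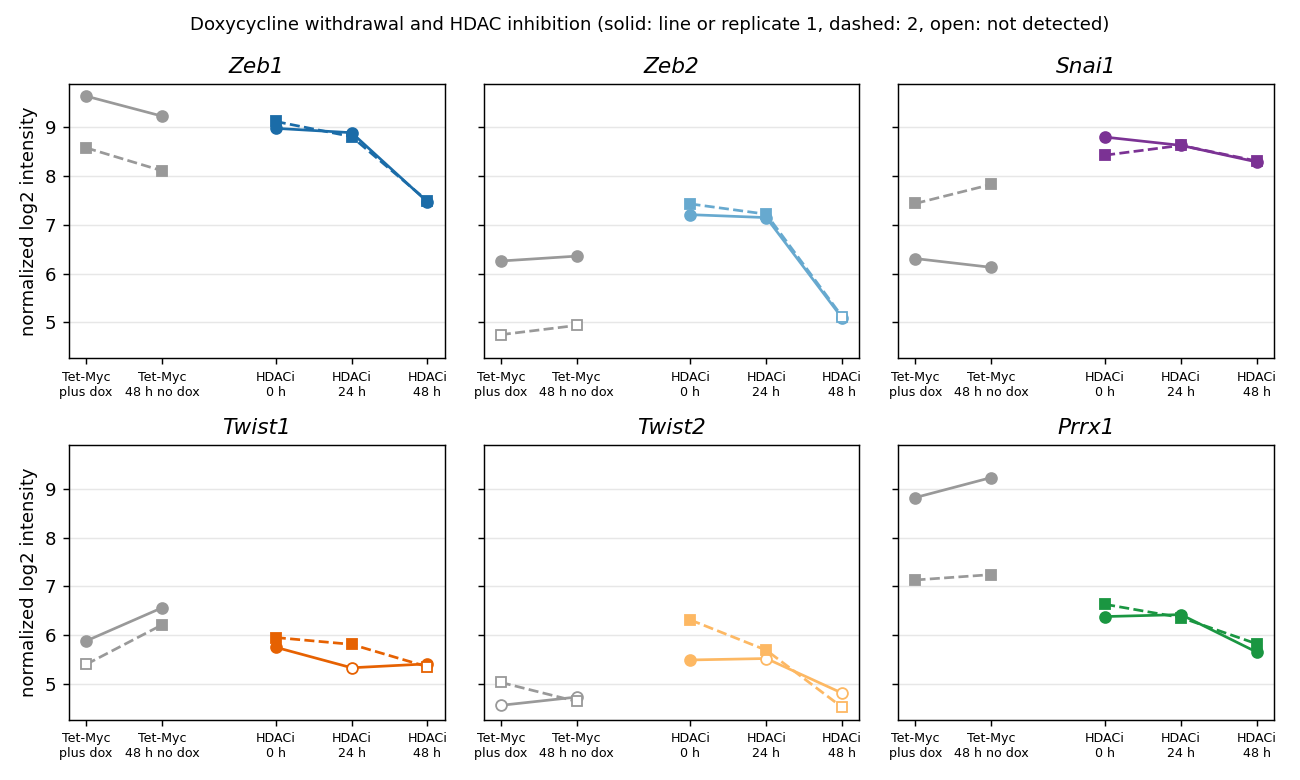
Normalized log2 intensity of each gene in the 2 Tet-Myc lines (grey) with doxycycline and 48 h without, and in the 2 HDACi replicates (coloured) at 0, 24 and 48 h. Lines join the arrays of 1 line or replicate number, and open points were not detected. Zeb1 and Zeb2 stay level to 24 h and drop by 48 h, to 7.47 and 7.49 and to 5.09 and 5.12, while Snai1 lies between 8.29 and 8.80 at all HDACi times.

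Withdrawal of doxycycline from Tet-Myc lines asked what these factors do when the transgene is switched off. None of the 6 was called without a term for the line, 0 of 6 (15.3% of genes in either direction), and 1 of 6, Twist1, had an unadjusted p under 0.05. Levels of Prrx1, Zeb1, Snai1 and Zeb2 differed more between the lines than with doxycycline. Prrx1 stood at 8.82 and 9.23 in line 1, with and without doxycycline, and at 7.13 and 7.24 in line 2. Zeb1 stood at 9.64 and 9.23 in line 1 and at 8.58 and 8.11 in line 2. Line 1 was the higher for both, and Snai1 had the opposite order, at 6.31 and 6.13 in line 1 and 7.44 and 7.83 in line 2.

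Twist1 was higher without doxycycline in both lines, at 5.88 and 6.56 in line 1 and at 5.40 (not detected) and 6.21 in line 2. The log2 fold change of 0.75 had SE 0.24 and adjusted p = 0.073. Because each line was measured on both sides, the line was also fitted as a replicate block. The block gave SE 0.17 and adjusted p = 0.027 for Twist1, so 1 of 6 was called. Of all genes, 2553 of 10154 were called in that fit, in either direction. Zeb2 was detected in line 1 only (6.26 and 6.36, against 4.75 and 4.94 in line 2), and Twist2 on none of the 4 arrays. The Zeb1 difference of -0.44 had the same sign in both lines. It passed in neither fit (adjusted p = 0.51 without the block, and SE 0.13 and adjusted p = 0.055 with it). Without the block, limma called 0 of 12 mesenchymal and 0 of 16 epithelial targets, with 1 of each at an unadjusted p under 0.05. With it, 1 mesenchymal target was higher, and 1 epithelial target was higher and 2 lower. Of 10 partners and antagonists, 4 were higher and 1 lower in either fit. Without the block, Grhl2 was 4.86-fold higher and the helix-loop-helix inhibitors Id2, Id1 and Id3 were 3.44-fold, 3.02-fold and 2.65-fold higher. Tgfbi was 9.52-fold and Bmp4 5.90-fold higher. Summed fibroblast markers stood at 397 and 675 with doxycycline and at 1210 and 2080 without it, and their part in the Twist1 difference was not tested.

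Among the 22 C-class clones most of the factors varied together, and none correlated inversely with Cdh1 past the threshold. Of 15 pairs of factors, 12 correlated past an adjusted p of 0.05 by Pearson's r, and 0 of all 21 relations computed passed with a negative r (permutation tests of 100000 resamples, Benjamini-Hochberg over the 21, of which 14 passed by r and 6 by Spearman's rho). The closest pair was Twist2 and Prrx1, at r = 0.90 (p = 1e-05, the smallest the resamples can give, adjusted p = 2.1e-04) and rho = 0.83 (adjusted p = 4.2e-04), and r = 0.84 without clones 16 and 24. Zeb1 and Zeb2 had r = 0.61 (p = 0.0025, adjusted p = 0.0076) and rho = 0.61 (adjusted p = 0.020), and r = 0.68 without clones 3 and 5. Twist1 and Twist2 had r = 0.72 (p = 3.0e-04, adjusted p = 0.0031) but rho = 0.48 (adjusted p = 0.072), and r = 0.48 without clones 16 and 24, so that relation leaned on these clones. Snai1 had r = 0.13 with Zeb1 (p = 0.58, adjusted p = 0.67, rho = 0.07) and r = -0.07 with Zeb2 (p = 0.75, adjusted p = 0.83, rho = -0.07), the latter -0.44 without clones 24 and 25. With Cdh1, Zeb1 had r = -0.03 (p = 0.88, adjusted p = 0.93, rho = -0.19) and Zeb2 r = -0.28 (p = 0.20, adjusted p = 0.26, rho = -0.20). Snai1 and Twist1 passed with a positive r (0.46 and 0.47, adjusted p = 0.047 each) but not by rho (adjusted p = 0.16 and 0.12). Cdh1 itself spanned only 11.06 to 11.83 in C-class clones, against 8.04 to 10.98 in F-class clones.

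Clones 24 and 16 were at or near the bottom for most factors. Clone 24 was lowest for Prrx1 (7.05), Snai1 (6.96), Twist1 (5.53) and Twist2 (6.30), and clone 5 for Zeb1 (6.29). Clone 25 was lowest for Zeb2 (5.77). Twist2 had the widest spread of the 6, with an SD of 0.68 over C-class and 0.79 over F-class clones, and 91.1% and 96.2% of all genes had a smaller one. The fibroblast markers moved with the factors. Their mean correlated with Prrx1 at r = 0.90, with Twist2 at 0.87, with Zeb1 and Twist1 at 0.69, with Zeb2 at 0.53 and with Snai1 at 0.50 over these 22 clones, and clones 24, 16 and 28 had the lowest marker means (6.57, 6.63 and 6.69) and clone 15 the highest (7.93). Their part in the correlations between factors was not tested. By its r with Twist2, Prrx1 ranked 62 of 11045 genes, whose median r was -0.06 and of which 6.57% were above 0.5.

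**Figure D5:**
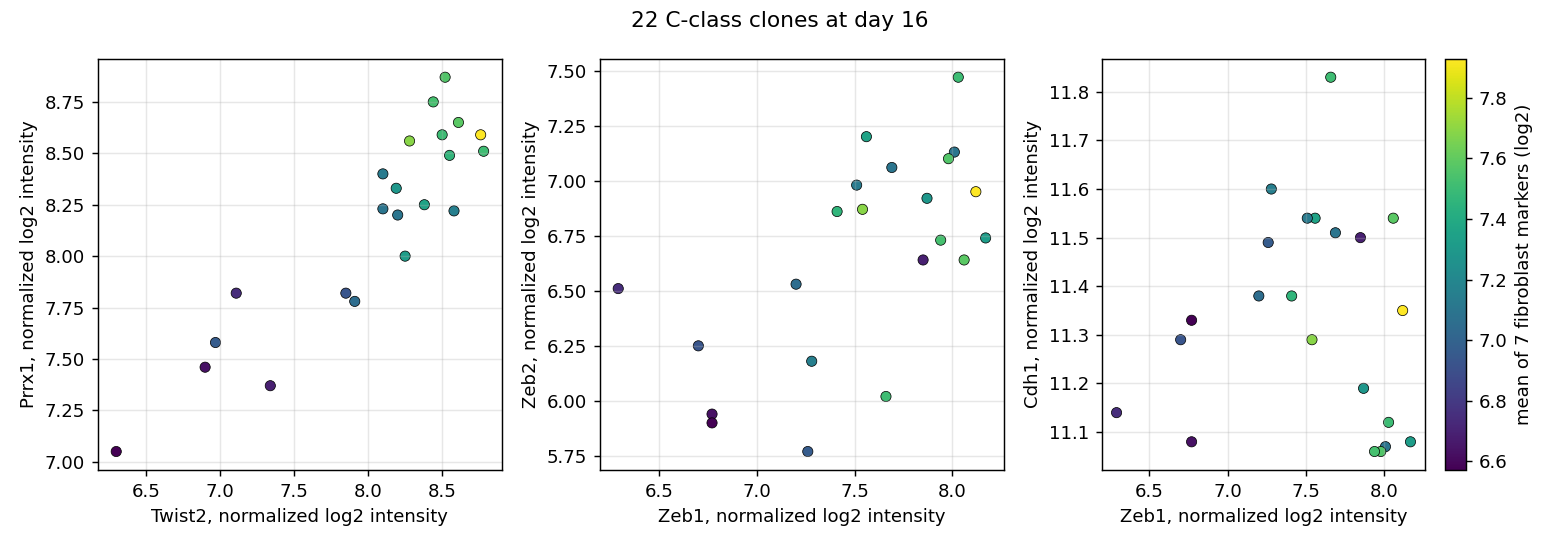
Normalized log2 intensity of pairs of genes over the 22 C-class clones, coloured by the mean of 7 fibroblast markers, for Twist2 and Prrx1 (r = 0.90), Zeb1 and Zeb2 (r = 0.61) and Zeb1 and Cdh1 (r = -0.03). Clones with low fibroblast markers gather at the low end of the first panel, and the third shows no trend.

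Over the means of all 17 groups the factors fell into unlike patterns. Twist1 and Twist2 had r = 0.906, Twist1 and Prrx1 0.892 and Twist2 and Prrx1 0.808, whereas Zeb1 and Zeb2 had 0.679 and Zeb2 and Snai1 0.362. These are descriptions over groups that share a normalization and the high fibroblast arrays. Of 11524 other genes compared, the nearest to Twist2 were Timp2 (0.980), Cd248 (0.977) and Ctsk (0.975), and to Twist1 Zfpm2 (0.970), Pcdh7 (0.965) and Scara3 (0.961). Prrx1 had Rhog (0.949), Npr2 (0.926) and Osmr (0.923), and Snai1 had Dkk3 (0.935), Rcn3 (0.884) and Mfap5 (0.880). Zeb2 had Tenm3 (0.907), Zfp521 (0.899) and Chsy1 (0.889), and Zeb1 had Tsc22d3 (0.880), Igdcc4 (0.871) and Srr (0.867).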

How the data were processed

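Total RNA of 51 samples was hybridized to 1-colour Illumina bead arrays for mouse. The authors deposited probe intensity before normalization (medians per array 109 to 212). A detection p-value per probe was deposited beside each intensity, per the file headers. A second set of intensities, scaled by the authors by a method not given in the sources used here, kept the probe order (lowest Spearman correlation 1.00) and served as an alternative.

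Intensities were background-corrected and quantile-normalized on the log2 scale by neqc (limma 3.58.1, R 4.3.3, negative controls inferred from detection p-values, offset 16). Of 25697 probes, 23978 had 1 gene symbol, 1719 none and 0 several. Genes with a detection p-value under 0.05 on 2 arrays or more entered lmFit, contrasts and eBayes, in 1 fit of the 5 reference groups (11046 genes) and 1 of the 5 perturbation groups (10154 genes), two-sided, with Benjamini-Hochberg adjustment over all genes. The few arrays per group limit the precision. A gene undetected on a whole group has only a bound there, given as "at least": the brighter group's mean against, per array, the higher of the dim value and the lowest detected signal. Correlations used Python 3.11.15, numpy 2.4.6 and scipy 1.17.1. The fit was tested on simulated data.

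The 6 genes and the lists were chosen with earlier results of these data known. Beside the 6 and Cdh1, list genes were named by rule, at most 4 called ones per list and comparison with the largest change, and the 3 genes most like each factor. Tet-Myc replicate numbers are cell lines, so they pair the arrays (correlation of deviations 0.503). HDACi numbers did not all correlate (0.259, 0.0914 and 0.0779), so no pairing was taken. Alternatives were other normalizations, detection filters, fitting 2 groups alone, number format, replicate block, leaving out arrays and, chosen after seeing the data, the other probes of Prrx1 and Snai1.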

Additional observations from a re-analysis of the deposited data

Results flagged for a closer look

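The Zeb1 level of F-class clone 13, at 7.56, stood apart from the other 5 F-class clones (8.68 to 9.09), with a gap of 0.74 of the whole F-class range by Dixon's criterion. The same check of the 6 factors in F-class clones marked 1 of 6, and chance marks about 1 in 20. Snai1 moved in opposite directions in the Tet-Myc lines without doxycycline, by 0.39 in line 2 and by -0.18 in line 1, a difference that was not tested.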

How the results depend on the processing

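Of 112 counts of called factors under alternatives that keep every array, 103 stayed within 1.5 times the reported count. The count between iPSC and ESC went from 0 to 1 under quantile normalization, the authors' values and an offset of 50, and Zeb2 turned there from 0.11 to -0.08, -0.08 and -0.01. HDACi at 48 h against 24 h went from 1 to 0 with no detection filter and to 3 with the 2 groups alone. The count at 48 h against 0 h went from 3 to 5 with the 2 groups alone. The genes called among all tested rose as well with the 2 groups alone, from 1688 to 3702 and from 2907 to 4747. With number format as a term, C-class against ESC went from 2 to 4, and Zeb2 in F-class against iPSC from 0.90 to -0.73. With the replicate block, Tet-Myc went from 0 to 1 and HDACi at 48 h against 24 h from 1 to 3, adding Zeb1 and Prrx1, as the 2 groups alone did. All genes called rose there too, from 1553 to 2553 and from 1688 to 2545. HDACi arrays share only a number. For a Prrx1 probe of the other transcript, chosen after seeing the data, F-class against C-class was 0.05 and against ESC 0.04. The cause of these changes was not tested.

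Leaving out 1 array gave counts of 1 to 2 for C-class against iPSC, 2 to 4 for F-class against ESC, 2 to 4 for C-class against ESC, 0 to 1 for HDACi at 48 h against 0 h and 0 for 48 h against 24 h. A lone array was assumed to vary like the other groups. The differences whose sign turned then were not called with all arrays. They are given as reported and, in brackets, as lowest and highest. Between F-class and C-class clones, Prrx1 was -0.02 (-0.17 to 0.17). Between F-class clones and ESC, Prrx1 was -0.15 (-1.32 to 1.02) and Zeb2 1.01 (-0.31 to 2.33). Between C-class clones and ESC, Prrx1 was -0.13 (-1.30 to 1.04), Snai1 -0.36 (-0.78 to 0.05), Twist2 -0.79 (-1.68 to 0.10) and Zeb2 -0.36 (-1.68 to 0.97). Between iPSC and ESC, Prrx1 was 0.42 (-0.75 to 1.59), Snai1 0.41 (-0.01 to 0.82), Twist2 0.65 (-0.24 to 1.54), Zeb1 -0.18 (-0.59 to 0.22) and Zeb2 0.11 (-1.21 to 1.44). For Tet-Myc, Prrx1 was 0.26 (-0.73 to 1.26), Snai1 0.11 (-0.74 to 0.96), Twist2 -0.11 (-0.35 to 0.12), Zeb1 -0.44 (-1.0 to 0.12) and Zeb2 0.15 (-0.61 to 0.90). For HDACi at 24 h against 0 h, Prrx1 was -0.11 (-0.24 to 0.02), Snai1 0.01 (-0.17 to 0.20) and Twist2 -0.30 (-0.70 to 0.11), and at 48 h against 24 h Twist1 was -0.19 (-0.43 to 0.05).

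Of all genes, the 2 groups fitted alone called 0 for Tet-Myc (1553 reported) and 2 for iPSC against ESC (900), and the replicate block 2553 for Tet-Myc. Signals not above background limit Twist2 and Zeb2 in Tet-Myc and HDACi arrays to bounds.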
